A study of Mus musculus with 6 samples.

Results

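Phf11a, Phf11b, Phf11c, Phf11d and Setdb2 lie side by side on mouse chromosome 14, and these 5 genes are described here out of the 26814 gene symbols with counts. They are the 4 Phf11 paralogues and the adjacent Setdb2, and they were picked because Phf11a was almost absent from the libraries labelled WT and present in those labelled KO. The difference between genotypes in these genes is therefore given as a description, and no p-value is printed for them. Top lip tissue came from 3 WT mice and 3 knockout (KO) mice of the Gtf2ird1 tm1Hrd line, all adult females on a C57BL/6J background, and each mouse gave 1 mRNA library. Gtf2ird1 encodes a transcription factor of the TFII-I family. The lip is a mixture of epidermis, hair follicle, dermis and muscle, so in these bulk libraries fewer cells of a type and less RNA per cell cannot be told apart.

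Phf11 proteins carry a PHD-type zinc finger, a fold that in many nuclear proteins reads modified histone tails. The human gene PHF11 lies next to SETDB2, and variants in this region have been linked to atopic dermatitis and asthma. Setdb2 encodes a SET domain protein that methylates lysine 9 of histone H3, a mark of silent chromatin. In macrophages Setdb2 is induced by type I interferon, an antiviral cytokine family.

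The 6 libraries held from 20164081 to 29491767 counts on genes, and levels are given as CPM, the counts scaled to a common library size after TMM normalisation. Counts of the targeted gene were higher in the libraries labelled KO, although the methods of the study state that genotypes were checked again on tail biopsies. Gtf2ird1 had 78.0, 70.0 and 70.5 CPM in WT1, WT2 and WT3 and 166, 162 and 144 CPM in KO1, KO2 and KO3, so genotypes are named here by the label of the library. These counts cover the whole gene and do not show whether a functional transcript was made. GTF2IRD1 is known to bind the promoter of its own gene, and the reason for the higher level was not tested. Among the libraries labelled KO, KO3 stood apart. Its log2 CPM correlated with those of KO1 at 0.957 and of KO2 at 0.969 across tested genes, which are not independent replicates, whereas KO1 and KO2 correlated with each other at 0.984. By the chi-square of their counts per degree of freedom, KO3 differed from the WT libraries by 72.7 to 97.3, and from KO1 by 114.7 and KO2 by 197.7, whereas its correlations with the WT libraries, 0.948 to 0.955, were below those with KO1 and KO2. Fitted values and marker sums that KO3 moves most are given without it as well. The epidermal keratins were abundant, with Krt5 at 4877 ± 442 CPM and Krt14 at 3674 ± 145 CPM (SD, n = 3) in the WT libraries.

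The cluster spans 164.0 kb of GRCm38 and all 5 genes are transcribed from the minus strand. In the GENCODE annotation Phf11a occupies chr14:59276913-59297522 and is followed by Phf11b at chr14:59320964-59341351. Phf11d lies at chr14:59347407-59365470, Phf11c at chr14:59380833-59395381 and Setdb2 at chr14:59402009-59440884. The Phf11 genes have 8 to 10 exons in their longest transcript and Setdb2 has 15. A processed pseudogene, Gm16301, lies inside Setdb2 on the same strand and held at most 2 counts in any library.

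The windows around the annotated start sites of Phf11a, Phf11b and Phf11d are shown because the first pair is nearly the same sequence in front of genes with very different levels, and because each of the 3 holds a pair of GAAA repeats. The windows are those of RefSeq on GRCm38.p6, where all 5 genes matched, and run from 250 bases before the start to 50 bases after it on the minus strand. They cover chr14:59297473-59297772 for Phf11a, chr14:59341281-59341580 for Phf11b and chr14:59365441-59365740 for Phf11d. Capitals mark GAAANNGAAA in Phf11a and Phf11b and GAAANGAAA in Phf11d.
Phf11a: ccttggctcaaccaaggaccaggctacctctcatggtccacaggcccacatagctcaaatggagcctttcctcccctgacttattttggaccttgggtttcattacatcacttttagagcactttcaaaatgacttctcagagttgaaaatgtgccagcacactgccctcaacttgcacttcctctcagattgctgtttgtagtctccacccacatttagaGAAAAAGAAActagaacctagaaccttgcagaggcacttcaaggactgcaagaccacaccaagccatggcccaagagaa
Phf11b: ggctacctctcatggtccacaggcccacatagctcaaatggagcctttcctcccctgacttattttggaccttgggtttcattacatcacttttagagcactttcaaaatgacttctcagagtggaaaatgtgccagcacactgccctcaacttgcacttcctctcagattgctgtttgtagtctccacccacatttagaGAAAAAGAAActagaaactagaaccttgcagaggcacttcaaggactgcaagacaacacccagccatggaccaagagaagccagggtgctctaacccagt
Phf11d: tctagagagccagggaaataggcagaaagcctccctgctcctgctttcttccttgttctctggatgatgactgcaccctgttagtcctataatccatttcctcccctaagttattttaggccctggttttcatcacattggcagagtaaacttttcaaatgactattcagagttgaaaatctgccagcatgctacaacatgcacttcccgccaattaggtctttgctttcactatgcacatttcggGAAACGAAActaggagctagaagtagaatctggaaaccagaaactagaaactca

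GAAANNGAAA is the core of the interferon-stimulated response element, found in front of many interferon-stimulated genes, and GAAANGAAA is the same pair of repeats with a spacer shorter by 1 base. Both were searched on both strands, and GAAANGAAA was added after the sequences had been read. In Phf11a the first motif covered the bases 29 to 20 before the start, and in Phf11b those 50 to 41 before it. In Phf11d the second motif began 4 bases before the start and ended 4 bases after it. Of all 32851 windows of this length, 3.44% held GAAANNGAAA and 3.17% held GAAANGAAA. Neither motif was found in the windows of Phf11c and Setdb2. The RefSeq window of Phf11c lies inside the gene as GENCODE places it, and the sequence at the GENCODE start was not searched. The RefSeq starts of Phf11b and Phf11d also differ from those of GENCODE, by fewer bases. Measured from the GENCODE starts, the motif lies as far before Phf11b as before Phf11a, and that of Phf11d lies wholly before the start. A match is a description of letters and not of binding.

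The windows of Phf11a and Phf11b could be aligned over 279 bases with 5 mismatches and no gap, an identity of 98.2%. The Phf11d window aligned with that of Phf11a over 168 bases at 73.6%, gaps counted. Setdb2 differed in base composition, with 29 CpG dinucleotides in its window against 0 in Phf11a, 0 in Phf11b, 2 in Phf11c and 3 in Phf11d. The median over all windows was 7. GAS elements, TTCNNNGAA, known from genes that respond to interferon gamma, were found in 8.3% of windows and in none of these 5. GGATTA, a sequence that GTF2IRD1 is known to bind, was found in 7.06% of windows, and among the 5 in those of Phf11c and Phf11d.

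Phf11a, a short member of the family, was nearly absent from the WT libraries. It had 1 count in WT1, 3 in WT2 and 2 in WT3, against 212 in KO1, 382 in KO2 and 107 in KO3. In CPM this was 0.0362, 0.127 and 0.0898 in the WT libraries and 10.8, 12.5 and 4.89 in KO1, KO2 and KO3. The genotypes did not overlap, and the lowest library labelled KO held 38.4 times the CPM of the highest WT library. Over the summed counts, 701 against 6, the ratio per library size was 119, with a 95% interval from 54.5 to 326 that covers counting error only. The fitted log2 fold change was 6.76 (standard error 0.54), and both depend on the small prior count that the fit adds to each library. By DESeq2 the log2 fold change was 6.88 with a larger standard error, 0.70. KO3 was the lowest of the libraries labelled KO, and without it the mean level was 11.7 CPM, 138 times the WT mean, against 112 times with it.

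Phf11d had the most counts of the family in each library except KO1, where Phf11a had more. Its level was 3.48, 3.18 and 3.05 CPM in WT1 to WT3 against 9.70, 25.4 and 16.6 CPM in KO1, KO2 and KO3. All 3 libraries labelled KO lay above all 3 WT libraries, and KO2 held 2.62 times the level of KO1, a wider spread than the 1.14-fold range among the WT libraries. The means were 3.24 ± 0.218 and 17.2 ± 7.85 CPM (SD, n = 3), a log2 fold change of 2.41 (standard error 0.34). Without KO3 it was 2.45. Of the 15009 tested genes, 215 had a log2 fold change at least this high, among them Phf11d itself, and 45 had one at least that of Phf11a.

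Phf11c lies between Phf11d and Setdb2. It had 1.85, 2.21 and 1.44 CPM in WT1 to WT3 against 3.83, 4.0 and 1.55 CPM in KO1, KO2 and KO3. KO1 and KO2 lay above the WT libraries, whereas KO3 lay among them, so the genotypes overlapped. The log2 fold change was 0.78 (standard error 0.37) with all libraries and 1.10 (standard error 0.24) without KO3, a difference that rests on which libraries are included.

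Phf11b was close to the limit of detection in both genotypes. It had 10, 8 and 8 counts in the WT libraries and 12, 24 and 15 counts in KO1, KO2 and KO3, and 3 counts corresponded to between 0.0985 and 0.153 CPM across the libraries. Its CPM of 0.362, 0.339 and 0.359 in the WT libraries lay below the 0.613, 0.788 and 0.685 CPM of the libraries labelled KO. The ratio of the summed counts was 2.0 with a counting interval from 1.23 to 3.35. Phf11b reached 1 CPM in 0 libraries and did not enter the fit. Without the filter its log2 fold change was 1.03 (standard error 0.37, and 0.55 by DESeq2). With a start-site window 98.2% identical to that of Phf11a, it thus had 51 counts in the libraries labelled KO where Phf11a had 701.

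Setdb2, the histone methyltransferase gene of the cluster, varied least between genotypes. It had 5.90, 6.96 and 7.32 CPM in WT1 to WT3 against 10.1, 9.45 and 7.94 CPM in KO1, KO2 and KO3. The libraries labelled KO lay above the WT libraries, the lowest of them by a factor of 1.09. The log2 fold change was 0.45 (standard error 0.18), and 0.55 without KO3. The plot of CPM by library shows these values together.

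**Figure D1:**
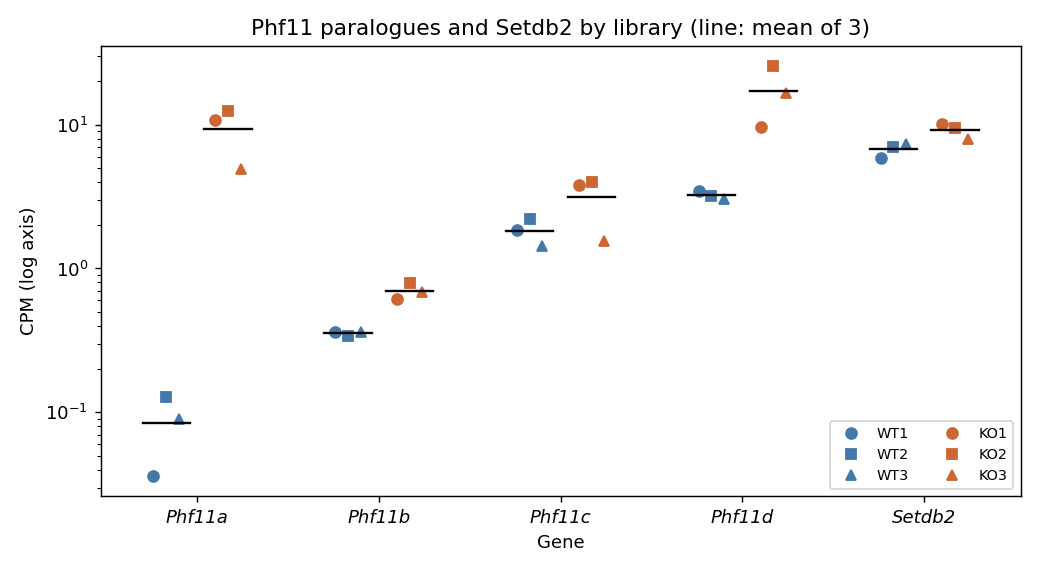
CPM of each gene in each library on a log axis, with WT libraries in blue, libraries labelled KO in orange, 1 marker shape per replicate number and a line at the mean of 3. Phf11a in the WT libraries sits at or below 0.127 CPM, and KO3 is the lowest library labelled KO for Phf11a, Phf11c and Setdb2 but not for Phf11b or Phf11d.

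Of the 5 genes, 4 passed the filter of at least 1 CPM in at least 3 libraries, and Phf11a did so through the libraries labelled KO alone. Phf11a and Phf11d, 2 of the 5, were called at the 0.05 threshold on Benjamini-Hochberg adjusted values, beside 4.38% of tested genes called higher, 2.09% called lower and 6.47% in either direction. The genotypes did not overlap in 4 of the 5, Phf11a, Phf11b, Phf11d and Setdb2. Beside this, every library labelled KO lay above every WT library in 13.5% of tested genes and below in 18%. These shares do not cover genes that failed the filter, as Phf11b did. Without KO3, where 16.9% of tested genes were called higher, Phf11a did not pass the filter and the genes called were Phf11c, Phf11d and Setdb2. The genes were picked from this contrast, so nothing is read from these counts.

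Per kb of exon the order of the mean levels changed between genotypes. In the WT libraries Setdb2 was highest at 1.66 ± 0.181 CPM per kb, followed by Phf11d at 0.720 ± 0.0484, Phf11c at 0.529 ± 0.111, Phf11b at 0.299 ± 0.0105 and Phf11a at 0.0623 ± 0.0338 (SD, n = 3). The ranges of neighbours in this order did not overlap. In the libraries labelled KO, Phf11a was highest at 6.95 ± 2.97 CPM per kb, followed by Phf11d at 3.83 ± 1.75, Setdb2 at 2.27 ± 0.274, Phf11c at 0.904 ± 0.395 and Phf11b at 0.587 ± 0.0743. There the range of Phf11a overlapped that of Phf11d, that of Phf11d overlapped that of Setdb2, and that of Phf11c overlapped that of Phf11b. In KO3 Phf11d (3.68) lay above Phf11a (3.61) and Phf11b (0.578) above Phf11c (0.449), and in KO1 Setdb2 (2.5) lay above Phf11d (2.16). Exon lengths were 1.35 kb for Phf11a, 1.18 kb for Phf11b, 3.46 kb for Phf11c, 4.50 kb for Phf11d and 4.05 kb for Setdb2.

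The make-up of the Phf11 counts differed as well. Summed over the 4 paralogues, the level was 5.72, 5.85 and 4.94 CPM in WT1 to WT3 against 25, 42.7 and 23.7 CPM in KO1, KO2 and KO3. Phf11a made up 0.633%, 2.17% and 1.82% of the Phf11 counts in WT1, WT2 and WT3, with Wilson 95% limits of 6.39% or less. In the libraries labelled KO its share was 43.4% in KO1 (39.0% to 47.8%), 29.4% in KO2 (27.0% to 31.9%) and 20.6% in KO3 (17.4% to 24.3%). These intervals cover counting error only, and the share was highest in KO1 and lowest in KO3. Phf11d made up 59.0 ± 4.04% in the WT libraries and 56.1 ± 15.8% (SD, n = 3) in those labelled KO, and Phf11c 33.0 ± 4.34% and 10.4 ± 4.49%.

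**Figure D2:**
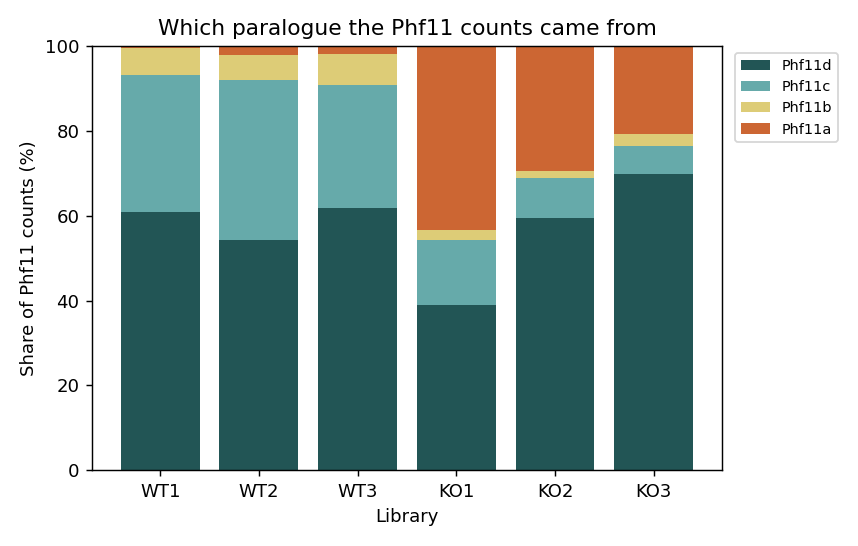
Share of the summed Phf11 counts, in percent, that each paralogue took in each of the 6 libraries. The orange share of Phf11a is at most 2.17% in the WT libraries and at least 20.6% in the libraries labelled KO.

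The paralogues share sequence, and this bears on the counts. Of all 100-base windows in the annotated transcripts of Phf11a, 8.13% were found unchanged in the transcripts of another gene, and 62.6% lay within 2 mismatches of another Phf11 gene or of Gm6904, a neighbouring Phf11 sequence. For Phf11b these shares were 13.8% and 67.7%, for Phf11c 5.86% and 9.94%, and for Phf11d 3.78% and 12.8%. Setdb2 shared 0 of its 4144 windows, and its counts are not touched by the paralogues. The longest coding transcripts of Phf11a and Phf11b aligned over 1178 bases with 42 mismatches and 176 gap bases (83.9% identity, gaps counted), and those of Phf11c and Phf11d over 1209 bases with 117 mismatches and 16 gap bases (89.1%). Reads that fit several genes equally were not counted by the authors, so the levels of Phf11a and Phf11b are the least certain, and how many of the Phf11b counts in the libraries labelled KO came from Phf11a reads was not tested. Gm6904 itself held at most 4 counts in any library.

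The neighbours of the cluster were read in the same fit. Within 1 Mb on either side 15 further genes had counts and 7 were tested. Of these the quasi-likelihood test called 0 higher and 1 lower, beside 4.38% and 2.09% of all tested genes. At an unadjusted p under 0.05, 1 was higher and 1 lower, and 29.6% of all tested genes passed that limit, 13.5% higher and 16% lower. Their median log2 fold change was 0.43, beside -0.02 over all tested genes. The 1 higher was Nupl1, a nuclear pore gene, with a log2 fold change of 0.63 (adjusted p = 0.0716 from edgeR). It was called higher by edgeR's exact test and by DESeq2, beside 7.76% and 8.93% of all genes. Rcbtb1, 39.6 kb beyond Phf11a and the nearest tested gene on that side, had 19.6 ± 3.55 CPM in WT and 20.3 ± 3.53 CPM in those labelled KO (log2 fold change 0.05, standard error 0.19). Cab39l starts 88 bases from Setdb2 on the opposite strand and had a log2 fold change of 0.43 (standard error 0.19, adjusted p = 0.178), close in size to that of Setdb2. Cdadc1, a cytidine deaminase-like gene, had 0.46 (standard error 0.25, adjusted p = 0.255). Shisa2, an inhibitor of Wnt and FGF receptor maturation, fell from 134, 107 and 106 CPM to 48.6, 63.8 and 68.7 CPM in KO1, KO2 and KO3 (log2 fold change -0.94, standard error 0.17, adjusted p = 0.0192). Without KO3, 4 neighbours were called higher, where 16.9% of tested genes were, and when any other library was left out 0 were called in either direction, where between 1.41% and 3.22% of tested genes were called higher.

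**Figure D3:**
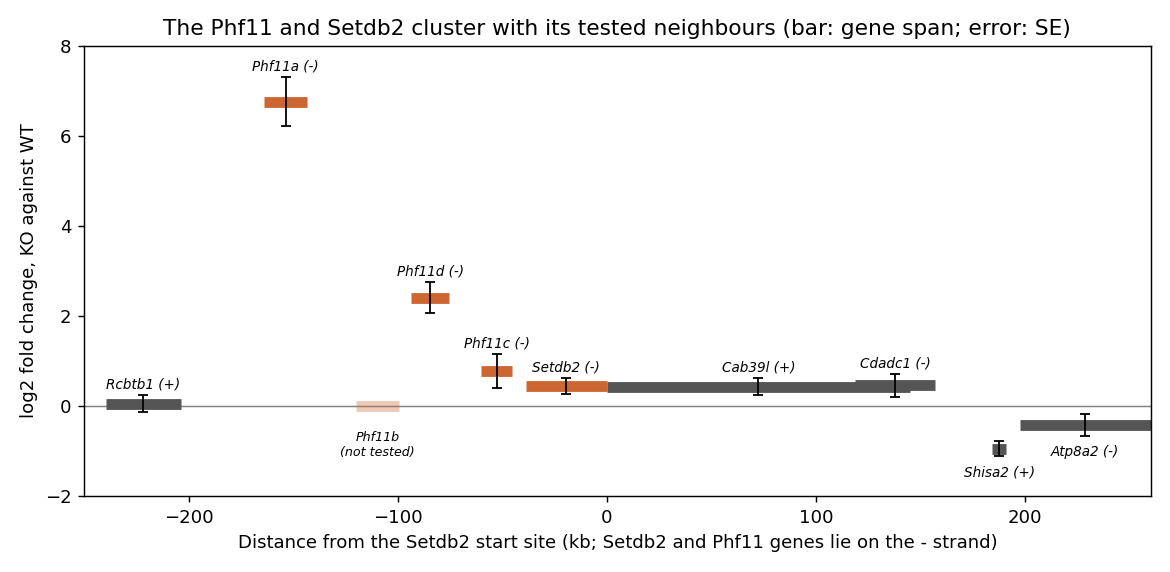
Fitted log2 fold change of each gene against its distance in kb from the Setdb2 start site, with bars for gene spans (cluster in orange, neighbours in grey) and standard errors in black. Phf11a and Phf11d stand above their neighbours, and Phf11b, which was not tested, is drawn pale at 0 for its position only.

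Phf11a and Phf11d differed from library to library in different ways. Relative to the WT mean of log2 CPM, Phf11a lay 6.07 higher in KO1, 6.28 in KO2 and 4.93 in KO3, so KO3 was the lowest. Phf11c had the same order, with 1.05, 1.12 and -0.21. Phf11d lay 1.56 higher in KO1, 2.94 in KO2 and 2.33 in KO3, so here KO1 was the lowest. The median of 25 interferon-stimulated genes lay 1.49, 3.16 and 2.49 above the WT mean in the same libraries. Setdb2 lay 0.59, 0.49 and 0.24 above it, and the median of all tested genes stayed within 0.05 of it.

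**Figure D4:**
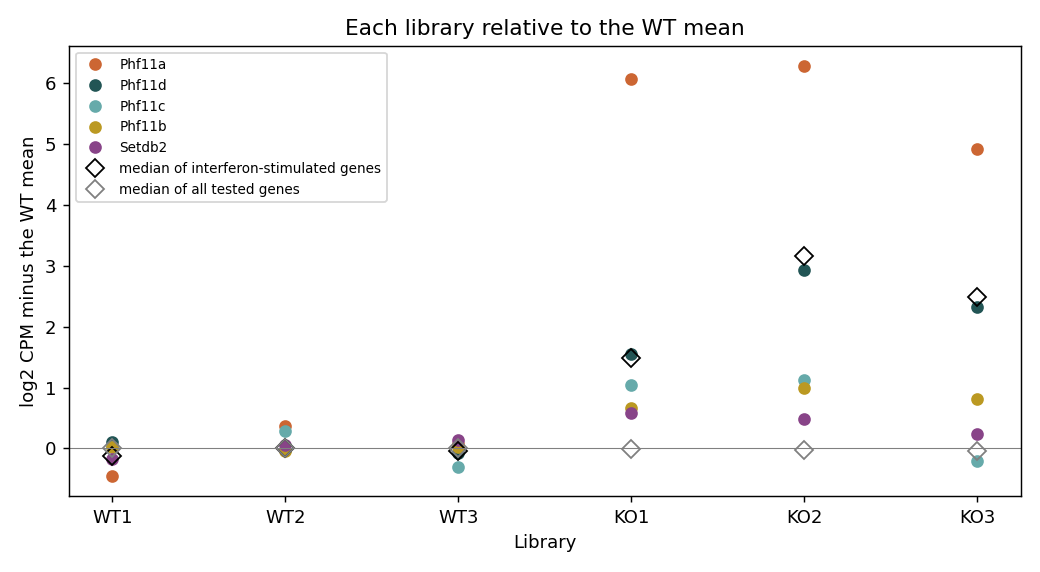
log2 CPM minus the WT mean of the same gene, for each of the 6 libraries, with filled circles for the 5 genes and open diamonds for the median of 25 interferon-stimulated genes (black) and of all tested genes (grey). In KO1, KO2 and KO3 the Phf11d points lie close to the interferon-stimulated median and are highest in KO2, whereas Phf11a is lowest in KO3.

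Likeness to other genes was measured as the root mean square difference of log2 CPM over the 6 libraries, each gene centred on its own mean. The values were not scaled, so the measure follows the size of the difference between genotypes as well as the order of the libraries. A match is a description of these libraries. The 5 tested genes closest to Phf11d were Oas1b (0.16), H2-T10 (0.16), Parp9 (0.17), Ifih1 (0.23) and Mx2 (0.25). Ifih1 encodes a sensor of double-stranded RNA and had 9.02, 7.97 and 9.42 CPM in WT1 to WT3 against 38.8, 69.5 and 43.3 CPM in KO1, KO2 and KO3. The 5 closest to Phf11a were Gm16094 (0.16), A530040E14Rik (0.16), AI481877 (0.19), AU019990 (0.22) and Tcstv1 (0.24), which lie on chromosomes 1, 1, 4, 2 and 13. AI481877 had 1.67, 3.14 and 2.56 CPM in WT1 to WT3 against 225, 215 and 67.4 CPM in KO1, KO2 and KO3, with KO3 lowest as in Phf11a. Phf11a and Phf11d differed by 1.85 on this measure. Phf11d was at rank 218 among tested genes in likeness to Phf11a, and Phf11a at rank 14780 in likeness to Phf11d. With log2 fold changes of 6.76 for Phf11a and 2.41 for Phf11d, these ranks do not separate a difference in size from one in pattern.

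For Phf11c the closest genes were Gmfb (0.08), Casp1 (0.09), Haus3 (0.10), Zfp160 (0.10) and Zc3h7a (0.10), and Casp1, which encodes the protease that matures interleukin-1 beta, had 14.3, 16.1 and 9.83 CPM in WT1 to WT3 against 27.7, 32.1 and 12.7 CPM in KO1, KO2 and KO3. For Setdb2 they included Ctage5 (0.04), Chd8 (0.05), E430025E21Rik (0.05) and Tgm5 (0.06). Chd8 encodes a chromatin remodeller and had 58.3, 75.7 and 76.6 CPM in WT1 to WT3 against 106, 104 and 83.6 CPM in KO1, KO2 and KO3. No gene was among the 5 closest of more than 1 of the 4 tested cluster genes.

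Most of the listed interferon-stimulated genes rose in the libraries labelled KO. Of 25 listed, all were tested and had positive log2 fold changes, 23 were called higher and 0 lower, beside 4.38% and 2.09% of all tested genes. Their median was 2.70, and that of all tested genes -0.02. The lowest p-values among them belonged to Oas1a (log2 fold change 5.0, adjusted p = 0.000171), Ifih1 (2.52, adjusted p = 0.000729) and Isg15 (4.76, adjusted p = 0.000917), all from edgeR's quasi-likelihood test. Isg15, a ubiquitin-like modifier, had 3.48, 1.91 and 2.24 CPM in WT1 to WT3 against 30.7, 77.7 and 100 CPM in KO1, KO2 and KO3. Ifit2 (0.91, adjusted p = 0.124) and Cmpk2 (0.78, adjusted p = 0.148) were not called by this test. The exact test and DESeq2 each called 24 of the 25 higher, Ifit2 included, beside 7.76% and 8.93% of all genes. Leaving out 1 library at a time left 12 genes called without KO2, 13 without WT1, 14 without WT3 and 20 without KO3, where 1.41%, 2.12%, 2.17% and 16.9% of all tested genes were called higher. At an unadjusted p under 0.05, 25 were higher and 0 lower (13.5% and 16% of all tested genes). Of the 18 list genes with a RefSeq window, 10 (55.6%) held GAAANNGAAA, the motif seen in Phf11a and Phf11b. GAAANGAAA, the motif seen in Phf11d, was held by 6 (33.3%).

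Among 15 genes of interferon signalling 6 were called higher and 0 lower, beside 4.38% of all tested genes called higher. The count was 5 with a replicate block, with library sizes alone and with upper-quartile factors, where 3.86%, 3.84% and 4.09% of tested genes were called higher. The genes called included Usp18, a brake on the receptor (log2 fold change 3.91, adjusted p = 0.000961), the transcription factors Irf9 (1.84, adjusted p = 0.00119), Irf7 (1.98, adjusted p = 0.00864) and Stat2 (1.60, adjusted p = 0.0121), and the kinase Jak1 (0.62, adjusted p = 0.0482). The receptor genes Ifnar1 (0.12, adjusted p = 0.578) and Ifnar2 (0.07, adjusted p = 0.814) were not called. Leaving out WT1 or WT3 left 2 genes of this list called higher, where 2.12% and 2.17% of tested genes were. Leaving out KO3 left 7 called higher, where 16.9% of tested genes were, and 1 lower, where 2395 of 14802 were.

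Genes for the histone mark that Setdb2 makes were read next. Of 19 genes for methylation of histone H3 lysine 9, its readers and its removal, 18 were tested, 1 was called higher and 0 lower, beside 4.38% of all tested genes called higher, and their median log2 fold change was 0.10. The called gene was Atf7ip, the partner of Setdb1, with 110 ± 5.38 CPM in WT and 187 ± 39.5 CPM in those labelled KO (log2 fold change 0.76, adjusted p = 0.037). With a replicate block it was not called, and 0 genes of the list were, where 3.86% of tested genes were called higher. Setdb1, the nearest relative of Setdb2, had a log2 fold change of 0.48 (standard error 0.17, adjusted p = 0.11), against 0.45 for Setdb2. Without KO3, where 16.9% of tested genes were called higher, 5 genes of the list were, and without any other library 0. Of 18 other PHD finger genes, the Phf-named ones and G2e3, 0 were called in either direction by the quasi-likelihood test, beside 6.47% of all tested genes. At an unadjusted p under 0.05, 3 were higher and 1 lower (29.6% of all tested genes). By edgeR's exact test and by DESeq2 1 was called higher, Phf14, beside 7.76% and 8.93% of all genes. The median of the 18 was -0.03, and Phf14 had the highest log2 fold change, 0.69 (standard error 0.22, adjusted p = 0.0909). Without KO3 5 of these were called higher, beside 16.9% of tested genes.

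PHF11 has been described as a partner of the NF-kB subunit RelA, and Setdb2 as a repressor of Cxcl1. Of 17 NF-kB factors and cytokine targets 12 were tested, with 4 called higher and 0 lower, beside 4.38% and 2.09% of all tested genes. Leaving out WT1, WT3, KO1 or KO2 left 2 called, where 2.12%, 2.17%, 1.98% and 1.41% of tested genes were called higher. Leaving out KO3, where 16.9% of tested genes were called higher, left 3. The 4 were Ccl2 (log2 fold change 1.51, adjusted p = 0.00336), Cxcl10 (4.23, adjusted p = 0.00345), Il1b (2.03, adjusted p = 0.0113) and Cxcl1 (2.71, adjusted p = 0.0175). Cxcl1, a neutrophil attractant, was low throughout, with 0.507, 0.127 and 0.404 CPM in WT1 to WT3 against 3.32, 1.44 and 2.33 CPM in KO1, KO2 and KO3. The quasi-likelihood test did not call the factors themselves, with Rela at 0.00 (adjusted p = 0.995) and Nfkb1 at 0.39 (adjusted p = 0.094). DESeq2 called 6 genes of the list higher, Nfkb1 and Rel among them, the exact test 4, and 8 were higher at an unadjusted p under 0.05, beside 8.93%, 7.76% and 13.5% of all genes by the same criteria. Cxcl2, Ccl5, Il6, Ifng and Il2 did not pass the filter.

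**Figure D5:**
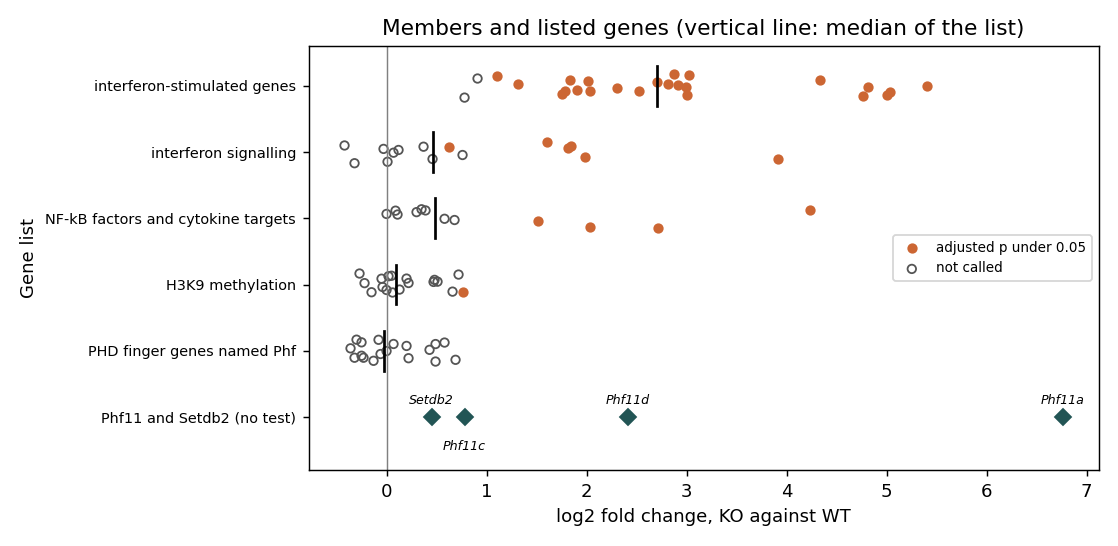
Fitted log2 fold change, KO against WT, of the tested genes of 5 lists, with filled circles for an adjusted p under 0.05, open circles for other genes and a line at the list median, and diamonds for the 4 tested genes of the cluster. Phf11d at 2.41 lies near the interferon-stimulated median of 2.70, Phf11a at 6.76 lies beyond every listed gene, and Setdb2 and Phf11c lie below 1.

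Markers of cells that could carry these transcripts were read beside them. Of all tested genes, the quasi-likelihood test called 4.38% higher and 2.09% lower, and the exact test 7.76% and 7.15%. DESeq2 called 8.93% and 5.31% of the genes with a value, and 13.5% and 16% of tested genes passed an unadjusted p under 0.05. Of 8 B cell markers 7 had counts and 1 passed the filter, the kinase gene Blk, which was higher (log2 fold change 1.95, adjusted p = 0.0364). The defining gene Ms4a1, at 0.0420 ± 0.0452 and 0.0693 ± 0.0204 CPM (SD, n = 3, WT and KO), was near 0 in both genotypes. The 7 summed to between 1.70 and 2.29 CPM in WT and between 2.56 and 5.66 CPM in those labelled KO, where KO3 was highest and KO1 had 3.78 CPM. Of these sums Blk made up 0.507, 0.636 and 0.853 CPM in WT1 to WT3 and 2.5, 1.41 and 3.84 CPM in KO1, KO2 and KO3. Of 10 T and NK cell markers 5 were tested and 0 called by the quasi-likelihood test (1 higher and 1 lower at an unadjusted p under 0.05, 1 and 1 by the exact test, 1 and 0 by DESeq2), and the 10 summed to values from 124 to 181 and from 71.6 to 136 CPM. Without KO3 the KO sum ended at 79.3 CPM. Thy1, which other cells of skin also express, made up most of this sum, with 144, 118 and 172 CPM in WT1 to WT3 against 64, 66.7 and 120 CPM in KO1, KO2 and KO3, whereas the other 4 tested markers had positive log2 fold changes. None of these was called by the quasi-likelihood test, and Cd4 was called higher by the exact test and by DESeq2. Of 10 macrophage and dendritic cell markers 8 were tested and 1 was called higher by the quasi-likelihood test, Cd207 of Langerhans cells, at 3.66 ± 0.575 and 12.9 ± 0.451 CPM (log2 fold change 1.81, adjusted p = 0.000932). Of the 8, 4 had positive log2 fold changes, with a median of -0.01 and a lowest value of -0.53 in C1qa. At an unadjusted p under 0.05, 2 were higher and 1 lower, and the exact test and DESeq2 each called 1 higher and 0 lower. The sum ran from 242 to 284 CPM in WT and from 202 to 292 CPM in those labelled KO. The 292 CPM were those of KO3, and KO1 and KO2, at 204 and 202 CPM, lay below the WT libraries.

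Markers of the tissue layers were summed in the same way. Beside their counts, the shares of all genes called lower were 2.09% by the quasi-likelihood test, 7.15% by the exact test, 5.31% by DESeq2 and 16% at an unadjusted p under 0.05, and those called higher were 4.38%, 7.76%, 8.93% and 13.5%. The 10 skeletal muscle markers summed to between 11293 and 15761 CPM in WT and between 4646 and 9654 CPM in those labelled KO, where KO3 was highest and KO2 had 6196 CPM. Of these 3 were called lower by the quasi-likelihood test, 8 by the exact test, 7 by DESeq2 and 10 at an unadjusted p under 0.05. The 10 suprabasal keratinocyte markers summed to between 19999 and 24883 CPM and between 30979 and 47523 CPM, where KO3 was lowest and KO2 had 40778 CPM. Of these 1 was called higher by the quasi-likelihood test and 5 by the exact test, by DESeq2 and at an unadjusted p under 0.05. Krt1 and Krt10 made up most of the suprabasal sums, with log2 fold changes of 1.18 and 0.64. Of the 10 markers 8 had positive log2 fold changes, whereas those of Lor (-0.32) and Tgm3 (-0.28) were negative. The 8 basal keratinocyte markers summed to between 11239 and 12122 CPM and between 11509 and 12776 CPM, with 1 called higher. Hair follicle markers had 1 of 9 called lower (2 by the exact test, 2 by DESeq2 and 7 at an unadjusted p under 0.05) and ran from 8318 to 10651 and from 5624 to 7179 CPM. Fibroblast markers, from 6563 to 8508 and from 2873 to 6868 CPM, and endothelial markers, from 193 to 242 and from 132 to 217 CPM, had 0 of 8 each called by the quasi-likelihood test. The upper KO values are those of KO3. Without KO3 the sums ended at 3641 CPM for fibroblast and 140 CPM for endothelial markers, below every WT library. The collagen genes Col1a1, Col1a2 and Col3a1 made up most of the fibroblast sum, with log2 fold changes of -0.85, -0.80 and -0.75. The other fibroblast markers ran from -0.46 in Dpt to 0.10 in Fbln1, the only positive value of the 8. At an unadjusted p under 0.05, 1 fibroblast and 3 endothelial markers were lower, and the exact test and DESeq2 each called 0 and 1. The part of cell composition in the levels of Phf11a, Phf11d and the other genes was not tested.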

How the data were processed

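Paired-end reads from 3 WT and 3 KO lip libraries were mapped by the authors to GRCm38 with TopHat2 2.0.8 and Bowtie2 2.1.0 at default settings. The deposited values are raw counts per gene, made by the authors with HTSeq-count from uniquely mapped reads, and the strand setting is not given in the sources used here. The filter asked for 1 CPM or more in 3 or more libraries, which left 15009 genes and at least 99.8% of each library. Libraries were scaled by TMM, and the KO and WT labels were compared by quasi-likelihood (glmQLFit with legacy=FALSE, then glmQLFTest) in edgeR 4.0.16 under R 4.3.3, with Benjamini-Hochberg adjustment over all tested genes and a threshold of 0.05. Standard errors of the edgeR fits are the absolute log2 fold change divided by the square root of the quasi-likelihood F value. log2 CPM used a prior count of 2. The fit was tested on simulated data, and no outcome of that check is reported here. Each library is a separate mouse by the methods of the study. Exon lengths, positions and transcripts came from GENCODE M21 (GRCm38), which is later than the annotation the authors counted with, and start-site windows from RefSeq (GRCm38.p6). Windows of 100 bases were compared between transcripts on both strands. Intervals are at the 95% level. The tools of the alternatives were edgeR's exact test and DESeq2 1.42.0. The 5 genes and the gene lists were chosen with earlier results of these data known. Named genes were the cluster, Gtf2ird1, up to 3 called genes per list and direction with the lowest p, genes needed as roles, the 3 nearest tested coding neighbours on each side and any called, and the 5 most alike genes. Nupl1, Ifit2, Cmpk2, Jak1, Ifnar1, Ifnar2, Phf14, Rel, Rela, Nfkb1 and the cell type markers named singly, beyond this rule, were chosen after their values were seen. Protein sequences were not analysed here, and some listed or closely alike genes are not reported here.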

Additional observations from a re-analysis of the deposited data

How the results depend on the processing

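Among the fits that could be made, the log2 fold changes of Phf11a, Phf11c, Phf11d and Setdb2 were positive under each alternative and with each library left out, and Phf11b was fitted only without a filter or with DESeq2. The log2 fold change of Phf11a was 5.85 with a prior count of 2 in place of the default, and it ran from 6.36 without WT1 to 7.23 without WT2. With any library labelled KO left out, or with a filter of 10 counts in every library, Phf11a was no longer tested. Leaving out each library, Phf11d ran from 2.07 to 2.76, Phf11c from 0.60 to 1.10 and Setdb2 from 0.36 to 0.55. Per kb of the longest transcript instead of all exons, the KO mean was 5.79 CPM per kb for Phf11d and 3.02 for Setdb2, and the order of the levels was the same.

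Over all tested genes, 657 were called higher and 314 lower. edgeR's exact test gave 1165 and 1073, and DESeq2 gave 1511 and 898. Lower calls numbered 207 with DESeq2's size factors, 204 without a filter and 204 with 10 counts in every library. Leaving out each library gave 208 to 2496 higher and 18 to 2395 lower calls, both lowest without KO2 and highest without KO3. The listed genes called higher ran from 2 to 7 for interferon signalling, 12 to 20 for interferon-stimulated genes, 0 to 5 for histone H3 lysine 9, 0 to 5 for PHD fingers and 2 to 4 for NF-kB, and called lower from 0 to 1 for interferon signalling. Neighbours ran from 0 to 4 higher and from 0 to 1 lower. The exact test and DESeq2 each called 1 PHD finger gene and 1 neighbour higher. The cause of these differences was not tested. The scalings moved the median of all genes by at most 0.06 on the log2 scale.

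Replicate numbers are shared between genotypes, and the deviations of same-numbered libraries correlated at -0.192, 0.293 and 0.312. KO2 correlated best with WT2 and KO3 with WT3. KO1, however, correlated best with WT2 (0.407) and negatively with WT1, so the numbers were not taken as pairs. With a replicate block 580 genes were called higher and 217 lower, and 0 in place of 1 of the histone H3 lysine 9 genes. Depth limits Phf11a in the WT libraries, with 1 to 3 counts in each, and Phf11b in all, with 8 to 24.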
